A study of Sebastes mystinus with 44 samples.

Results

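White muscle of juvenile blue rockfish (Sebastes mystinus), a marine fish of the northeast Pacific, was compared between 4 fish held for 12 h in seawater of lowered oxygen and 4 fish held for 12 h in control seawater. The group of lowered oxygen is named DO and holds fish Mys21, Mys22, Mys23 and Mys24, and the control group holds fish Mys13, Mys14, Mys15 and Mys16. These 8 of the 44 fish of the series were chosen by the exposure and time in their titles, and no measured value entered the choice. Per the labels, all fish lived in 8 aquaria of flowing seawater with 10 juveniles each at 11.4 to 12.3 °C, and nitrogen was bubbled to lower oxygen. The labels do not spell out DO, which is read here as dissolved oxygen, and neither the oxygen level reached nor the aquarium of each fish is given in the sources used here. Libraries were prepared in 2 sets, and the set of each fish is not given either. Fish of a group may share an aquarium, and a p-value then measures the spread between these fish only. The table of 12 h also holds 4 fish of the group pH (seawater acidified with carbon dioxide) and 4 of the group cross (not defined in the labels, read as the combined exposure). Both share the control fish and entered the fit for its estimate of the spread. Other DO and control fish were sampled at 24 h (3 and 4 fish) and at 2 weeks (4 and 4 fish).

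White muscle is the fast tissue of burst swimming in fish, and it runs largely on stored phosphocreatine and on glycolysis rather than on oxygen. When oxygen falls, vertebrate cells stabilise hypoxia-inducible factor, a transcription factor that raises genes of glycolysis, glucose uptake and blood vessel growth, and many fishes lower the costly making of protein. The files identify each measured unit only by a Trinity identifier, which denotes a gene-level group of transcripts assembled from the reads without a genome, called a feature here. No feature is paired with a gene name, so genes of these pathways could not be counted, and the label white muscle could not be checked against muscle markers. The comparison is therefore told by features, their levels and the fish that carry them. Levels are given in CPM, the counts-per-million scale after TMM scaling (a factor per library that centres most features). CPM takes no account of feature length, so levels are compared mainly between fish. Where features are ranked or put in classes by CPM, abundant means high in CPM, which mixes abundance with length.

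The 4 DO libraries held 13840192 to 25071257 counts and the 4 control libraries 12196366 to 16933708. A level resting on 3 counts corresponded to 0.137 to 0.253 CPM in DO fish and 0.144 to 0.297 CPM in control fish, for counting error only. Pairs of fish of the same group differed far more than sampling noise allows (chi-square per feature of 18.8 to 52.6 over 12 pairs), so no library was a copy of another. Across the tested features the correlation of log2 CPM averaged 0.93 over the 6 pairs of DO fish and 0.92 over the 6 pairs of control fish, and 0.918 over the 16 pairs of a DO and a control fish. The excess of pairs within groups over pairs between groups was 0.0067 (one-sided exact permutation p = 0.114, smallest possible 0.0286).

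In edgeR's fit of the 16 fish no feature passed the test between DO and control fish at 12 h, while DESeq2 called 28. Of 24701 features tested, edgeR's quasi-likelihood test called 0 at an adjusted p under 0.05 (0%), and the smallest adjusted p was 0.497. At an unadjusted p under 0.05 stood 1635 features (6.62%), where an even spread of p-values gives 1235. They lay mostly on the lower side, with 1122 features lower in DO fish (4.54%) and 513 higher (2.08%). The median log2 fold change of the lower features was -1.06, with the middle 50% from -1.57 to -0.78. That of the higher features was 0.90, with the middle 50% from 0.68 to 1.21. Over all features tested the median log2 fold change was 6.8e-05 and the median absolute value 0.30.

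**Figure D1:**
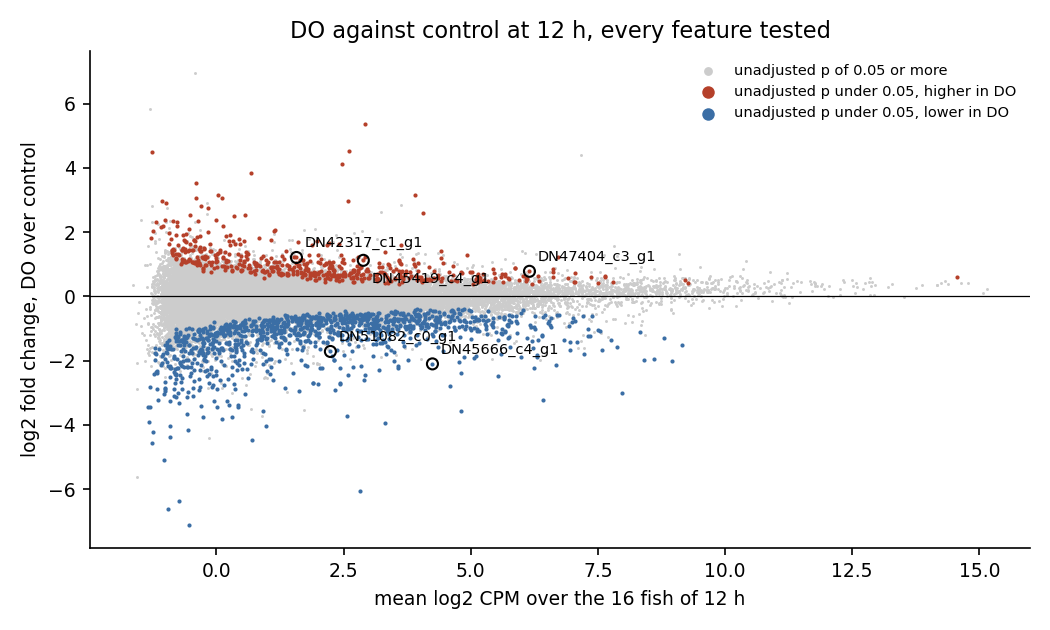
The log2 fold change of DO over control fish at 12 h (vertical axis) against the mean log2 CPM over the 16 fish of 12 h (horizontal axis) for each of the 24701 features tested. Coloured points have an unadjusted p under 0.05 (513 higher, 1122 lower), circles mark the named features, and no feature passed an adjusted p of 0.05.

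The outcome depended on the tool. Of the 28 features that DESeq2 called (0.113%), 27 were lower in DO fish and 1 higher. Limma voom with quality weights called 0, with 3032 at an unadjusted p under 0.05. All 28 had an unadjusted p under 0.05 in edgeR, between 7.95e-05 and 0.00384. In 22 of the 27 lower features the 4 DO fish lay below the 4 control fish without overlap, beside 2.34% of all features tested. The same fish gave the calls, so this separation is a description. When only the 8 DO and control fish entered the edgeR fit, 2 features passed, and with DO fish Mys22 left out 2 other features passed. With no filter on low counts edgeR called 154 of 124974 features, 22 higher and 132 lower.

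By separation of the fish the sides were nearly equal. All 4 DO fish lay below all 4 control fish in 578 features (2.34%) and above them in 528 (2.14%). Among features at an unadjusted p under 0.05 there was no overlap in 376 of 1122 lower ones (33.5%) and in 236 of 513 higher ones (46%). The same fish gave the p, so these shares are a description. Whatever their p, 153 of the 4355 features of 10 to 100 CPM were higher without overlap and 132 lower. Of the 760 features of 100 to 1000 CPM these numbers were 36 and 13, and of the 128 features of 1000 CPM or more 5 and 0. The lower ones led at lesser levels, with 242 higher and 300 lower of 12670 features of 1 to 10 CPM. Under 1 CPM they were 92 higher and 133 lower of 6788. By size the lower side was the heavier. A log2 fold change below -2 was seen in 220 features and above 2 in 54. An unadjusted p under 0.05 was seen in 165 of the 220 and 33 of the 54. In many of these features 1 fish held most of its group's level. Over 50% of the summed control level sat in 1 control fish in 116 of the 220, and over 50% of the summed DO level in 1 DO fish in 34 of the 54. The like share over all features tested was not taken, and such a fish need not account for the fold. The groups did not overlap in 62 of the 220 and 13 of the 54, and the same fish gave these folds.

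The largest folds show this unevenness, in 2 features chosen after their values were seen. TRINITY_DN46832_c16_g1 had the largest positive log2 fold change among features with a mean log2 CPM of at least 1, 5.36 (SE 2.38, edgeR adjusted p = 0.749). It stood at 14.2 CPM in DO fish Mys23 and 12.9 CPM in DO fish Mys24, and at 0.138 and 0 CPM in DO fish Mys21 and Mys22, against 0.0744 to 0.297 CPM in the control fish. The feature was thus present at more than trace level in 2 of 4 DO fish. It was also high in pH fish Mys17, Mys19 and Mys20, at 18.9 to 31.9 CPM, and in cross fish Mys7067 at 18.2 CPM. TRINITY_DN49611_c6_g1 had the most negative value, -6.06 (SE 1.74, edgeR adjusted p = 0.66), with 0.345, 0.275, 0 and 0.761 CPM in DO fish Mys21, Mys22, Mys23 and Mys24, against 0.446, 13.2, 73.6 and 4.46 CPM in control fish Mys13, Mys14, Mys15 and Mys16. Control fish Mys13 lay within the DO range, and control fish Mys15 held most of the control level.

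Of 239549 features, 114575 had 0 counts in all 16 fish of 12 h. Features with 0 counts in the 4 DO fish but at least 3 in each control fish were rare. In 3 features, all below the low-count filter and chosen after their values were seen, the 4 DO fish had 0 counts and each control fish had at least 3. TRINITY_DN55692_c4_g5 had 0 counts in DO fish and 43 in control fish, TRINITY_DN48055_c3_g3 had 0 and 25, and TRINITY_DN45108_c2_g4 had 0 and 22. Set against 3 counts over the DO group, with TMM scaled library sizes, they were at least 15-fold, 8.72-fold and 7.67-fold lower in DO fish, for counting error only. Single control fish held 3 to 23, 3 to 11 and 3 to 8 counts of these features. The pH fish together held 12, 23 and 14 counts, and the cross fish 18, 0 and 31. A lack of TRINITY_DN48055_c3_g3 was thus not particular to DO fish. No feature had 0 counts in the 4 control fish and at least 3 in each DO fish.

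Under the naming rule, 2 features stand for each side, those of smallest unadjusted p among features with a mean log2 CPM of at least 1 and with the 4 DO fish either all above or all below the mean of the controls. None of the 4 passed the edgeR test. TRINITY_DN51082_c0_g1 had the smallest unadjusted p of all features. It stood at 2.48, 1.74, 0.977 and 3.13 CPM in DO fish Mys21, Mys22, Mys23 and Mys24, against 6.90, 8.85, 6.64 and 4.84 CPM in control fish Mys13, Mys14, Mys15 and Mys16. The groups did not overlap, and the DO level was spread over a wider relative range than the control level. The means were 2.08 ± 0.929 CPM in DO fish and 6.81 ± 1.64 CPM in control fish (SD, n = 4 each). On the log2 scale DO over control was -1.72 (SE 0.34, unadjusted p = 7.95e-05, edgeR adjusted p = 0.497). DESeq2 called this feature (DESeq2 adjusted p = 0.00615). The pH fish stood at 4.24 to 6.41 CPM and the cross fish at 2.80 to 6.90 CPM.

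TRINITY_DN45666_c4_g1 showed the log2 fold change farthest from 0 among the 4. It had 5.31, 5.63, 6.35 and 3.46 CPM in DO fish Mys21, Mys22, Mys23 and Mys24, against 24.0, 20.9, 16.95 and 27.5 CPM in control fish Mys13, Mys14, Mys15 and Mys16. The highest DO fish lay well under the lowest control fish. The means were 5.19 ± 1.23 CPM in DO fish and 22.3 ± 4.47 CPM in control fish (SD, n = 4 each). On the log2 scale DO over control was -2.10 (SE 0.42, unadjusted p = 0.000105, edgeR adjusted p = 0.497). When only DO and control fish entered the fit its edgeR adjusted p was 0.0362. DESeq2 called this feature as well (DESeq2 adjusted p = 0.00615). Cross fish Mys7066 stood at 7.62 CPM, close to the DO fish, while the other 3 cross fish stood at 20.8 to 55.9 CPM and the pH fish at 15.4 to 25.9 CPM.

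On the higher side the log2 fold changes were smaller. TRINITY_DN47404_c3_g1 had 85.9, 100.2, 90.1 and 91.4 CPM in DO fish Mys21, Mys22, Mys23 and Mys24, against 61.3, 45.3, 63.6 and 43.8 CPM in control fish Mys13, Mys14, Mys15 and Mys16. The 4 DO fish lay close together and above every control fish. The means were 91.9 ± 6.03 CPM in DO fish and 53.5 ± 10.4 CPM in control fish (SD, n = 4 each). On the log2 scale DO over control was 0.78 (SE 0.18, unadjusted p = 0.000372, edgeR adjusted p = 0.497). It was the 1 higher feature that DESeq2 called (DESeq2 adjusted p = 0.00615). Both pH fish (65.4 to 74.0 CPM) and cross fish (67.3 to 78.7 CPM) lay between the DO and the control fish.

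TRINITY_DN42317_c1_g1 was a low feature. It had 4.82, 3.25, 4.23 and 3.38 CPM in DO fish Mys21, Mys22, Mys23 and Mys24, which are 40 to 71 counts, against 1.41, 2.31, 0.991 and 1.93 CPM in control fish Mys13, Mys14, Mys15 and Mys16, which are 10 to 48 counts. The groups did not overlap. The means were 3.92 ± 0.742 CPM in DO fish and 1.66 ± 0.579 CPM in control fish (SD, n = 4 each). On the log2 scale DO over control was 1.21 (SE 0.29, unadjusted p = 0.000543, edgeR adjusted p = 0.594). The pH fish stood at 1.98 to 3.38 CPM and the cross fish at 2.57 to 3.71 CPM, so both overlapped the DO fish.

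**Figure D2:**
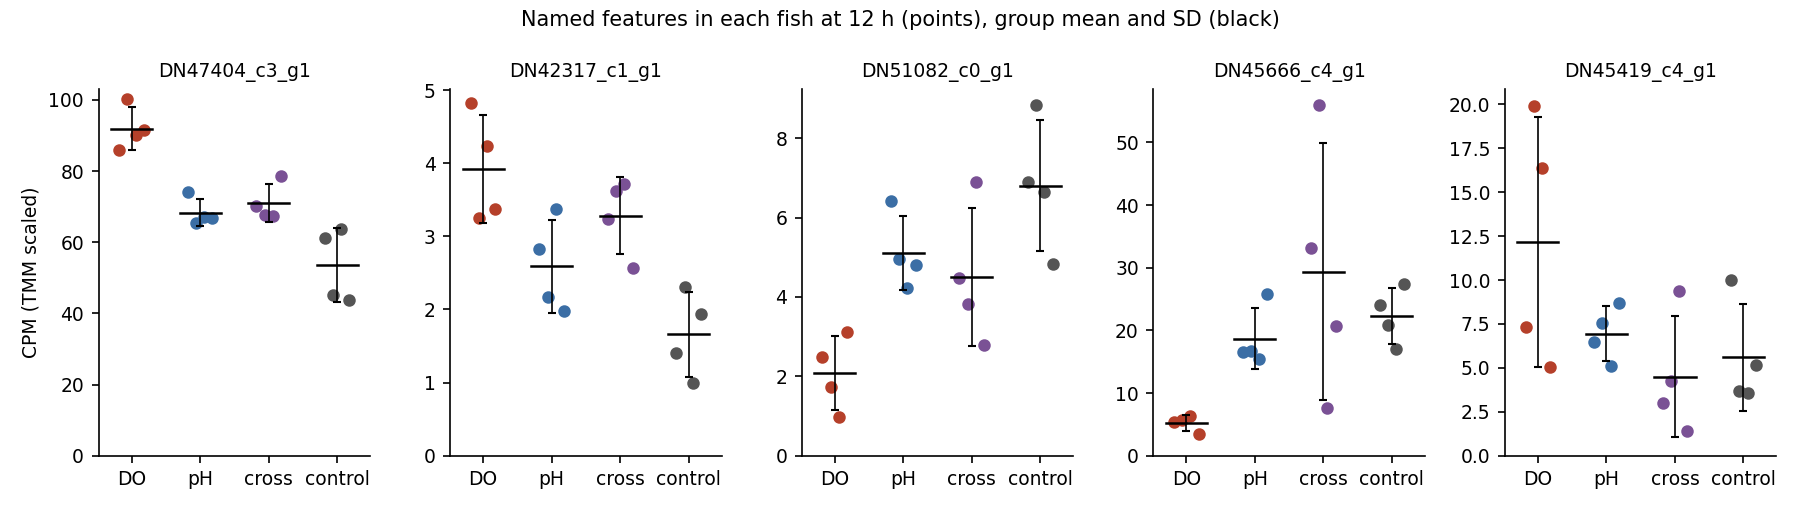
CPM (TMM scaled, linear axis from 0) of the 5 named features in each of the 16 fish of 12 h, 1 point per fish, for DO, pH, cross and control fish, with the group mean and SD in black. In the first 4 panels no DO fish overlaps a control fish, and in the last, TRINITY_DN45419_c4_g1, they overlap between 5.07 and 10.0 CPM.

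The fifth named feature was included because it passed the test for DO at 2 weeks in earlier results of these data. TRINITY_DN45419_c4_g1 stood at 7.31, 19.9, 16.4 and 5.07 CPM in DO fish Mys21, Mys22, Mys23 and Mys24, against 10.0, 3.66, 3.57 and 5.13 CPM in control fish Mys13, Mys14, Mys15 and Mys16. High values came from DO fish Mys22 and Mys23, and control fish Mys13 lay above the other 2 DO fish. The log2 fold change at 12 h was 1.12 (SE 0.51, unadjusted p = 0.0405, edgeR adjusted p = 0.749), rank 1326 by p. It was 0.17 (SE 0.57) at 24 h and 2.28 (SE 0.23) at 2 weeks. The difference between its effect at 12 h and at 2 weeks was -1.13 (SE 0.65, edgeR adjusted p = 0.808).

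The 20 features of smallest p shared the same adjusted p of 0.497, and 19 of them were lower in DO fish. In all 20 the DO and control fish did not overlap, beside 2.34% of all features tested with DO fish below and 2.14% with DO fish above. The same fish gave the p that chose the 20, so this separation is a description and adds no support. The log2 fold changes of the 19 ran from -4.15 to -0.98, and their control means from 0.991 to 243 CPM, so they were not confined to rare features. The most abundant of the 19 averaged 76.4 CPM in DO fish (41.8 to 99.1) and 243 CPM in control fish (178 to 313). A pair among the 19, at 50.4 and 11.5 CPM in DO fish and 173 and 41.4 CPM in control fish, came from the same Trinity cluster, whose features can be copies or fragments of 1 gene.

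Such shared origin was limited. The 1122 lower features came from 1063 Trinity clusters and the 513 higher ones from 501. Counting each other tested feature of the same cluster, 660 of 1123 (58.8%) had the same sign as the lower feature and 325 of 572 (56.8%) the same sign as the higher feature. Over all features, 12348 were lower and 12353 higher by sign.

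DO fish Mys22, with 25071257 counts, was the most deeply sequenced of the 8. Without it 2 features passed the edgeR test, both named here after their values were seen. TRINITY_DN47117_c3_g2 had 0.345, 2.70, 0.407 and 0.423 CPM in DO fish Mys21, Mys22, Mys23 and Mys24, against 3.49 to 9.62 CPM in control fish. TRINITY_DN44430_c1_g5 had 0, 22, 0 and 2 counts in the same DO fish, against 19 to 32 counts in each control fish. With fish Mys22 left out the log2 fold changes were -4.14 and -4.84 (edgeR adjusted p = 0.0112 and 0.0309), and with it -2.74 and -2.28. Limma voom gave DO fish Mys22 a quality weight of 0.626, the lowest among the 8 fish, whose weights reached 1.88 in DO fish Mys23.

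The second feature called when only the 8 fish entered the fit, TRINITY_DN46744_c4_g3, was likewise seen only afterwards. It had 3.30 to 7.56 CPM in DO fish and 17.9 to 35.6 CPM in control fish, and its log2 ratio in that fit was -2.37 (edgeR adjusted p = 0.0464). In the fit of all 16 fish its unadjusted p was 0.0029. The pH fish ranged from 13.5 to 51.2 CPM and the cross fish from 7.33 to 97.0 CPM, a wide spread that enters the estimate in the fit of 16.

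The share of features at an unadjusted p under 0.05 was not even over the range of abundance. Features were put in classes by their mean CPM over the 16 fish. The median absolute log2 fold change was 0.407 under 1 CPM, 0.278 at 1 to 10 CPM and 0.242 at 10 to 100 CPM. It was 0.236 at 100 to 1000 CPM and 0.317 at 1000 CPM or more, so the shares did not follow the size of the differences. Of 4355 features at 10 to 100 CPM, 6.41% were lower in DO fish at an unadjusted p under 0.05 and 2.55% higher. Of 12670 features at 1 to 10 CPM these shares were 4.43% and 2.15%, and of 6788 features under 1 CPM 3.73% and 1.71%. Among 760 features at 100 to 1000 CPM, 29 were lower and 12 higher. Among 128 features at 1000 CPM or more, 0 were lower and 1 was higher.

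The most abundant features leaned the other way, by small amounts. In the class of 1000 CPM or more, 117 of 128 had a positive log2 fold change, with a median of 0.32, and 561 of 760 did in the class below, with a median of 0.17. With library totals in place of TMM scaling the positive share of the top class was 82 of 128 and its median 0.08. Features of 1000 CPM or more took 66.2%, 60.5%, 65.1% and 64.4% of the counts in DO fish Mys21, Mys22, Mys23 and Mys24, against 57.1%, 55.7%, 65.2% and 60.5% in control fish Mys13, Mys14, Mys15 and Mys16. Control fish Mys15 thus lay within the DO range. Of the 10 most abundant features, 1 had an unadjusted p under 0.05, at 2.61% ± 0.284 of counts in DO fish and 2.02% ± 0.183 in control fish (SD, n = 4 each). On the log2 scale DO over control was 0.60 (SE 0.28, edgeR adjusted p = 0.749).

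**Figure D3:**
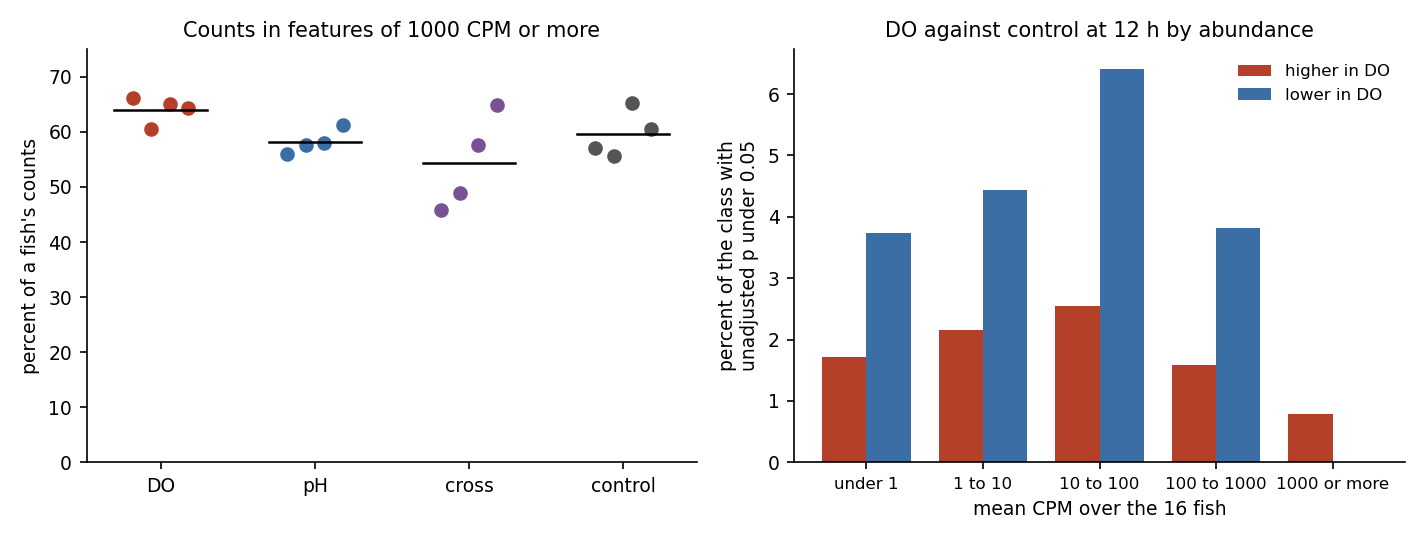
Left, the percent of each fish's counts in the 128 features of 1000 CPM or more at 12 h (points, with group means as lines), for DO, pH, cross and control fish. Right, the percent of each abundance class with an unadjusted p under 0.05 and higher or lower in DO than in control fish, where the lower share leads in every class except that of 1000 CPM or more.

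Measures of whole libraries pointed to fewer detected features in DO fish but did not pass. At the depth of the smallest library of 12 h, 44520 ± 1862 features were expected to have a count in DO fish and 48420 ± 4197 in control fish (SD, n = 4 each, exact permutation p = 0.114, adjusted over 3 measures 0.229). Without control fish Mys15 the exact permutation p was 0.0286, the smallest that 4 against 3 fish allow, and the difference was -5276 features. Without control fish Mys14 the difference was -1954 features (exact permutation p = 0.2), and over whole libraries, with no equal depth, it was -1588 (exact permutation p = 0.714). The 100 most abundant features took 61.2% ± 2.83 of counts in DO fish and 56.9% ± 4.54 in control fish (SD, n = 4 each, exact permutation p = 0.229). Total counts had an exact permutation p of 0.171, and 4 against 4 fish cannot go below 0.0286.

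The scaling bears on the balance of sides. TMM factors lay between 0.857 and 0.891 in the 4 DO fish and between 0.806 and 1.24 in the control fish. With library totals alone, an alternative chosen after these factors were seen, the median log2 fold change of all features moved to -0.27, and 2565 features were lower and 80 higher at an unadjusted p under 0.05 (97% lower, against 68.6% lower with TMM). With RLE size factors 67.3% were lower and with limma voom 58.2%. The 4 named features kept their sign in each of these settings. Less RNA of a feature per cell and fewer cells that carry it cannot be told apart in whole tissue.

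Fish sampled later are separate animals with separate controls, so the same measures were read in them. Their aquaria are not given and may be those of the 12 h fish, so the times may not be independent readings. At 24 h, 1078 of the 1122 lower features were tested, and 868 (80.5%) were again lower in DO fish, with a median log2 fold change of -0.55. Among all features lower by sign at 12 h the share was 65.1% and the median -0.20. An unadjusted p under 0.05 on the lower side at 24 h was seen for 205 of the 1078 (19%), and on the higher side for 9. The share on the lower side was 7.26% among all features lower by sign at 12 h and 4.29% among all features tested at 24 h. Of all features tested at both times, 55.6% were lower in DO fish at 24 h. Of the 513 higher features 492 were tested at 24 h, and 301 (61.2%) were again higher, beside 53.9% of all features of that sign, and 13 had an unadjusted p under 0.05 on the higher side (2.64%, against 2.7% of all features higher by sign at 12 h and 2.19% of all features tested at 24 h). Features are not independent of each other, so no test was made on these shares. At 24 h, too, edgeR called 0 features for DO against control (0%), with 1709 at an unadjusted p under 0.05 (6.48%).

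Per fish, the mean shift of the 1122 lower features from the control mean of the same time was -1.28, -0.80, -1.33 and -1.19 log2 units in DO fish Mys21, Mys22, Mys23 and Mys24 of 12 h, against -0.43, 0.05, 0.30 and 0.08 in control fish Mys13, Mys14, Mys15 and Mys16. These fish chose the features, so the gap is a description. Control fish Mys15 had the highest shift, and it too helped choose the features. In the DO fish of 24 h, which had no part in the choice, the shift was -0.62, -0.30 and -0.56 (fish Mys34, Mys35 and Mys36), against -0.74, 0.27, 0.18 and 0.29 in control fish Mys25, Mys26, Mys27 and Mys28. Control fish Mys25 lay below every DO fish, and the other 3 control fish above them. In pH fish Mys30, Mys31 and Mys32 of 24 h the shift was -0.385, -0.198 and -0.765. In cross fish Mys7068, Mys7069, Mys7070 and Mys7071 of 24 h it was -0.623, -0.905, -0.881 and -0.227. A negative shift at 24 h was thus not particular to DO fish. Without control fish Mys25, 840 of 1075 lower features (78.1%) were again lower at 24 h, beside 58% of all features of that sign, and 350 had an unadjusted p under 0.05 on the lower side, where 7.85% of all features tested in that fit stood. Without it 361 of 486 higher features (74.3%) were again higher, beside 64.8% of all features of that sign, and 75 had an unadjusted p under 0.05 on the higher side, where 6.69% of all features stood. With another fish of 24 h left out, the count of 205 was 60 without DO fish Mys36 (beside 1.41% of all features on that side), 78 without Mys34 (1.68%) and 211 without Mys35 (6.17%). It was 133 without control fish Mys26 (3.04%), 140 without control fish Mys27 (2.99%) and 101 without control fish Mys28 (2.07%).

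The pH and cross fish of 12 h share the control fish with the DO fish, so their values are given side by side and not compared. Over the 1122 lower features the shift was -0.32, -0.02, -0.33 and -0.41 in pH fish Mys17, Mys18, Mys19 and Mys20. In cross fish Mys7064, Mys7065, Mys7066 and Mys7067 it was -0.09, -0.14, -0.73 and 0.01. Cross fish Mys7066 lay near the least shifted DO fish, and no pH fish and none of the other 3 cross fish did. Over the 513 higher features the shift was 0.464, 0.278, 0.372 and 0.449 in pH fish Mys17, Mys18, Mys19 and Mys20. In cross fish Mys7064, Mys7065, Mys7066 and Mys7067 it was 0.274, 0.369, 0.543 and 0.104. In the DO fish it ran from 0.74 to 1.12, and in the control fish from -0.183 to 0.177. The control fish helped choose these features, which by itself pushes the shift of any other group above 0. No conclusion is therefore drawn from the positive shifts of pH and cross fish.

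At 2 weeks the lower features leaned the other way. Of 924 tested, 316 (34.2%) were lower in DO fish, beside 44.6% of all features of that sign, and their median log2 fold change was 0.19. An unadjusted p under 0.05 was seen on the lower side for 22 of the 924 (2.38%) and on the higher side for 68. Among all features tested at 2 weeks, 3.87% stood on the lower side and 4.11% on the higher side. edgeR called 1 feature at 2 weeks (0.00376%), TRINITY_DN45419_c4_g1, with 2123 at an unadjusted p under 0.05 (7.98%). The shift was 0.47, -0.12, 0.13 and 0.24 in DO fish Mys57, Mys58, Mys59 and Mys60, against -0.07, 0.06, 0.25 and -0.24 in control fish Mys49, Mys50, Mys51 and Mys52, so the groups overlapped. Without DO fish Mys57 or control fish Mys52 the 68 features became 31 and 29, and without DO fish Mys58 they became 124. Of the higher features 222 of 506 (43.9%) were again higher, beside 48.3% of all features of that sign. An unadjusted p under 0.05 was seen on the higher side for 23 of the 506 (4.55%) and on the lower side for 26. Of the 27 lower features that DESeq2 called at 12 h, 22 were again lower at 24 h (27 tested, median log2 fold change -0.88) and 5 at 2 weeks (23 tested, median 0.54). Beside them, 80.5% of the wider list of lower features and 65.1% of all features of that sign were again lower at 24 h. At 2 weeks these shares were 34.2% and 44.6%.

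**Figure D4:**
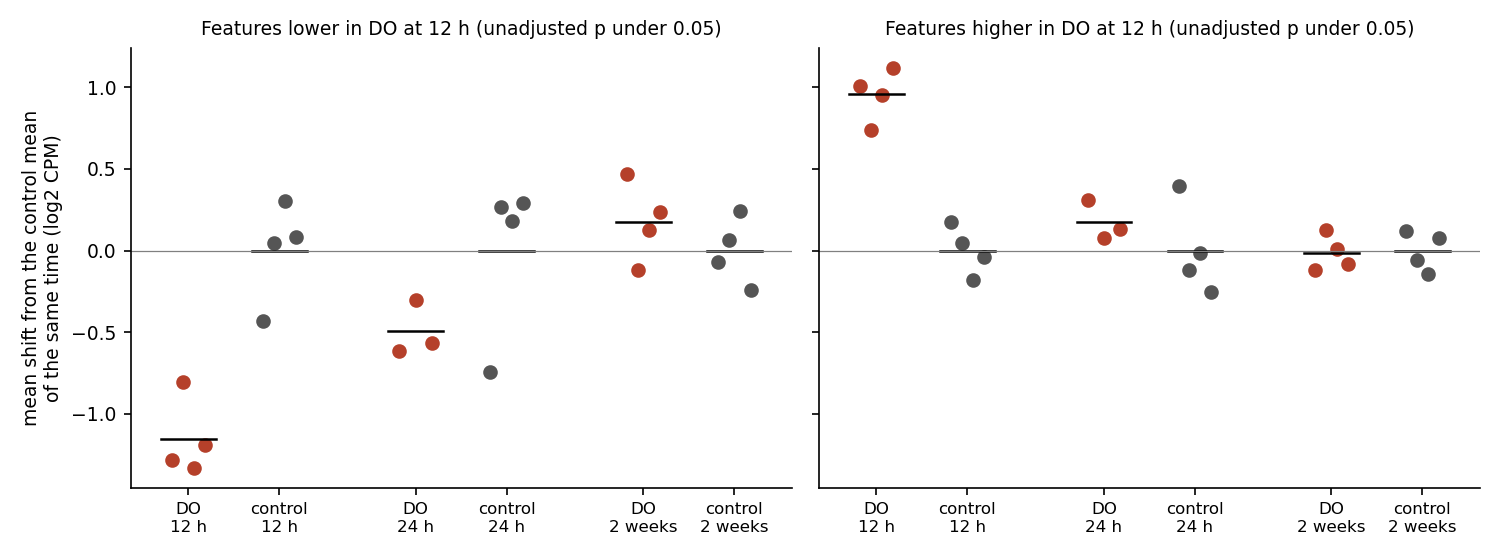
Mean shift of log2 CPM from the control mean of the same time over the features lower (left) and higher (right) in DO fish at 12 h with an unadjusted p under 0.05, 1 point per fish and a line for each group mean, at 12 h, 24 h and 2 weeks. The 12 h points chose the features. At 24 h the 3 DO fish lie below 3 of the 4 control fish on the left, and control fish Mys25 lies below them all.

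The change of the DO effect with time was tested directly in 1 fit of all 44 fish. edgeR called 0 of 34070 features for the effect at 12 h minus that at 24 h (0%), with 1688 at an unadjusted p under 0.05 where an even spread gives 1704. It called 0 for 12 h minus 2 weeks (0%), with 2267 at an unadjusted p under 0.05 and a smallest adjusted p of 0.222. DESeq2 and limma were not applied to the differences between times. Without the low-count filter 55 features passed for 12 h minus 2 weeks. No feature is therefore called particular to 12 h.

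The 4 features named by rule were chosen for their p at 12 h. The choice itself favours values nearer 0 at other times, so the later values are given as a description. At 24 h the log2 fold change of TRINITY_DN51082_c0_g1 was -0.11 (SE 0.49) and at 2 weeks -0.37 (SE 0.64). That of TRINITY_DN45666_c4_g1 was -0.33 (SE 0.62) at 24 h and 0.80 (SE 0.73) at 2 weeks, and its difference between 12 h and 2 weeks was -2.89 (SE 0.87, unadjusted p = 0.0022, edgeR adjusted p = 0.506). The control level of this feature was itself lower at the later times, at 22.3 ± 4.47 CPM at 12 h, 9.92 ± 5.18 CPM at 24 h and 2.66 ± 0.668 CPM at 2 weeks (SD, n = 4 each, scaled within each time). TRINITY_DN47404_c3_g1 had 0.03 (SE 0.30) at 24 h and 0.34 (SE 0.20) at 2 weeks. TRINITY_DN42317_c1_g1 had 0.41 (SE 0.35) and 0.15 (SE 0.28).

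**Figure D5:**
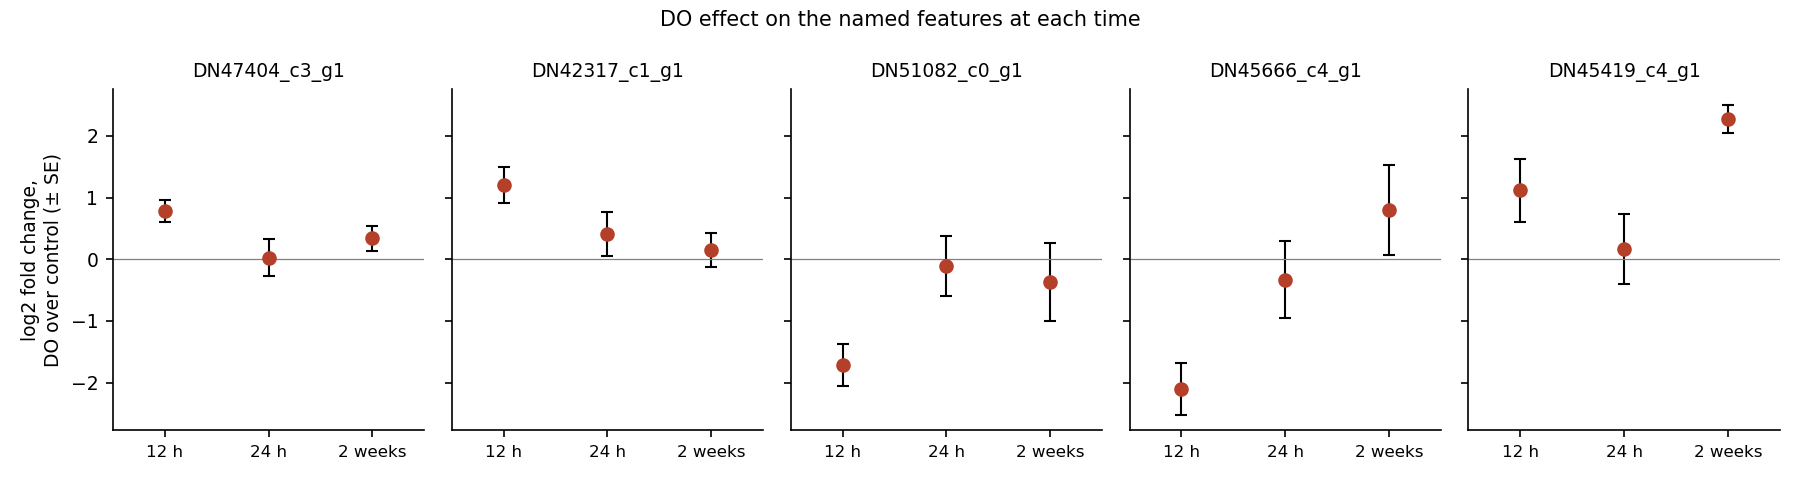
Log2 fold change of DO over control fish (points) with its SE (bars) for the 5 named features at 12 h, 24 h and 2 weeks. The first 4 were chosen for their p at 12 h and are farthest from 0 there, and TRINITY_DN45419_c4_g1 was chosen for its call at 2 weeks, where its value is 2.28.

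Among the 205 features lower at both 12 h and 24 h at an unadjusted p under 0.05, 2 are shown, chosen after their values were seen as those with the smallest larger p of the 2 times and a mean log2 CPM of at least 1. TRINITY_DN44996_c4_g1 had 4.27, 3.94, 3.50 and 5.41 CPM in DO fish Mys21, Mys22, Mys23 and Mys24 of 12 h, against 5.94, 8.85, 12.8 and 14.7 CPM in control fish Mys13, Mys14, Mys15 and Mys16. In DO fish Mys34, Mys35 and Mys36 of 24 h it had 2.67, 4.86 and 3.56 CPM, against 2.84, 13.7, 20.6 and 34.5 CPM in control fish Mys25, Mys26, Mys27 and Mys28. The groups did not overlap at 12 h, and at 24 h control fish Mys25 alone lay among the DO fish. The pH fish stood at 5.88 to 18.1 CPM at 12 h and 2.47 to 8.07 CPM at 24 h. The cross fish stood at 6.66 to 16.6 CPM at 12 h and 3.90 to 6.015 CPM at 24 h. Low levels at 24 h were thus not particular to DO fish. The log2 fold changes were -1.30 (SE 0.37) at 12 h, -2.26 (SE 0.62) at 24 h and -1.65 (SE 0.78) at 2 weeks, where DO fish had 3.63 to 16.6 CPM and control fish 7.32 to 64.0 CPM.

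TRINITY_DN42044_c1_g3 was a more abundant case. It had 190, 317, 175 and 253 CPM in DO fish Mys21, Mys22, Mys23 and Mys24 of 12 h, against 547, 345, 1275 and 492 CPM in control fish Mys13, Mys14, Mys15 and Mys16. At 24 h it had 219, 314 and 181 CPM in DO fish Mys34, Mys35 and Mys36, against 172, 1293, 925 and 2502 CPM in control fish Mys25, Mys26, Mys27 and Mys28. The log2 fold changes were -1.51 (SE 0.47) at 12 h and -2.36 (SE 0.64) at 24 h. At 2 weeks all fish were low, at 185 to 258 CPM in DO fish and 127 to 206 CPM in control fish, with a log2 fold change of 0.35 (SE 0.20). Scaled within each time, DO fish lay between 175 and 317 CPM at the 3 times, while control fish lay between 127 and 2502 CPM. The pH and cross fish of 24 h were low as well, at 164 to 264 CPM and 104 to 230 CPM. At 12 h they stood at 315 to 1189 CPM and 317 to 1046 CPM. A low level at 24 h was therefore not particular to DO fish.

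Features whose levels ran alongside the named ones over the 16 fish of 12 h were few. For TRINITY_DN51082_c0_g1 1 feature had a correlation of log2 CPM over 0.9, at 0.94, and it came from the same Trinity cluster, with a log2 fold change of -1.24. TRINITY_DN45666_c4_g1 had 3 such features, the closest at 0.97 with a log2 fold change of -2.46. TRINITY_DN45419_c4_g1 had 1, at 0.91. For TRINITY_DN47404_c3_g1 and TRINITY_DN42317_c1_g1 the closest features reached 0.84 and 0.83. These correlations are a description over fish that share exposure groups.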

How the data were processed

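RNA of white muscle from 44 fish was sequenced as stranded mRNA libraries, per the labels' protocols. The authors deposited 1 table per time of expected counts (estimated reads per assembled feature, not normalized), and 9.82% of the values of 12 h are not whole. Per the submitters' processing notes the tools were RSEM 1.3.0, edgeR, Bowtie, Trimmomatic 0.36 and FastQC 0.11.5, with no role stated. The sources used here hold no assembly settings or gene names, and the lists of marker and hypoxia genes were not run.

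Before testing, each expected count was rounded to the nearest whole number. Of 239549 features, 24701 passed filterByExpr (minimum count 10, total 15) and held 99.4% to 99.7% of each DO and control library. Tests used R 4.3.3 and edgeR 4.0.16 (quasi-likelihood, robust, TMM, two-sided, Benjamini-Hochberg over all features, threshold 0.05). All 16 fish of 12 h entered the fit, and the biological coefficient of variation was 40.4%. The tables of 24 h and 2 weeks were fitted alike, and differences between times in 1 fit of 44 fish. Each SE is the log2 fold change divided by the square root of its F. Log2 CPM used a prior count of 2. Single values per fish were tested by exact two-sided permutation.

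Alternatives were RLE factors, library totals, no filter, DESeq2 1.42.0, a minimum count of 30, voom from limma 3.58.1, 1 surrogate variable (sva 3.50.0), counts rounded down, a fit of 8 fish, and each fish left out. The scripts were first tested on simulated counts. Named features are the 2 per side that passed with the largest fold change or, as none passed, that had the smallest p, with a mean log2 CPM of at least 1 and all DO fish on 1 side of the control mean. Members and lists were chosen with earlier results of these data known.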

Additional observations from a re-analysis of the deposited data

Results flagged for a closer look

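In 39 sets of 4 fish examined, 4 held a fish far from the other 3, and chance gives about 5% of sets. Among control fish of 12 h, Mys14 had 16.9 M counts (16933708), apart from 12196366 to 12952237 in the other 3. TRINITY_DN47404_c3_g1, higher in DO fish at 12 h without passing the test, stood at 104 CPM in control fish Mys25 of 24 h and at 58.4 to 63.1 CPM in the other 3 control fish. The same fish Mys25 had a mean shift of -0.743 log2 units over the features lower in DO fish at 12 h, where the other 3 control fish of 24 h had 0.18 to 0.29. At 2 weeks TRINITY_DN45419_c4_g1 stood at 29.9 CPM in DO fish Mys57 and at 19.4 to 21.2 CPM in the other 3 DO fish.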

How the results depend on the processing

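No paired analysis was possible because the fish numbers of the groups do not overlap. The count of features past an adjusted p of 0.05 was 154 of 124974 without the low-count filter and 28 in DESeq2. It was 2 with only DO and control fish in the fit, and 0 to 2 with each fish left out. At an unadjusted p under 0.05 the count was 2645 of 24701 with library totals (80 higher, 2565 lower) and 3032 of 24701 in limma voom (1268 and 1764). For higher features it was 816 of 24701 with 1 surrogate variable. Without the filter the count was 5608 of 124974 (2048 and 3560), beside 1635 of 24701 in the main fit. With each fish left out it ran from 1158 (without DO fish Mys21) to 2401 (without DO fish Mys22), higher features from 387 to 855 (without control fish Mys13) and lower ones from 754 to 1665. The median absolute log2 fold change was 0.584 without the filter and 0.300 to 0.361 with each fish left out. The cause of these differences was not tested.

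Of the features lower at 12 h, 59.9% had the same sign at 24 h without the filter, beside 47.6% of all features of that sign. With each fish of either time left out it was 75.2% (beside 62.5%) to 82.9% (beside 65.5%). At 2 weeks the range was 27.1% (without DO fish Mys22, beside 42.3%) to 44.8% (without DO fish Mys57, beside 48.5%). Of those higher at 12 h, 66.6% had the same sign at 24 h with a minimum count of 30, beside 55.5% of all features of that sign. With each fish left out it was 53.8% (beside 50.5%) to 74.3% (beside 64.8%). At 2 weeks it was 49.8% without the filter (beside 47.1%), and 38.2% (beside 47%) to 55.8% with each fish left out. It was above 50% without DO fish Mys24 (50.4%, beside 49.1%) or control fish Mys15 (55.8%, beside 49.2%). For 12 h minus 24 h, features at an unadjusted p under 0.05 numbered 6372 without the filter and 1101 with a minimum count of 30, and 1513 to 1745 with each 12 h fish left out. For 12 h minus 2 weeks 7152 had an unadjusted p under 0.05 and 55 passed without the filter, and 1854 to 2978 had one with each 12 h fish left out, where 0 passed. Fits without the filter tested more features, so their counts are not on the same footing as the others. The difference in detected features at equal depth ran from -5276 to -1954 with each fish left out, and that in the share of the 100 most abundant features from 2.98 to 6.33 percentage points. The 5 named features kept their sign in each of 17 alternatives. Those of TRINITY_DN47404_c3_g1, TRINITY_DN51082_c0_g1 and TRINITY_DN45666_c4_g1 passed in 1, 2 and 3 of them, and their log2 fold changes ran from 0.54 to 0.87, -2.01 to -1.49 and -2.38 to -1.95. At 3 counts, levels below 0.137 to 0.297 CPM are not resolved in single fish.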
